A study of Rattus norvegicus with 9 samples.

Results

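The 10 genes followed here encode transcriptional regulators of fat cell formation and of lipid metabolism and were read across the femur libraries: the PPAR receptors Pparg, Ppara and Ppard, the coactivator Ppargc1a, the C/EBP factors Cebpa, Cebpb and Cebpd, the receptors Rxra and Nr1h3, and Srebf1. They were taken by symbol, and each of the 10 symbols had exactly 1 of the 32623 gene rows. A mean of at least 1 FPKM (fragments per kilobase of gene, scaled to library size) over the 9 libraries was required for the test, and 13886 genes passed it. Among them were 8 of the 10 regulators; Ppara and Ppargc1a lay below that level.

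The 9 libraries of femoral poly(A) RNA formed 3 groups of 3. Treated rats received the herb Desertliving Cistanche, and the series title places them in the ovariectomized model of postmenopausal osteoporosis. Ovariectomized rats had lost their ovaries, the main source of oestrogen, and control rats were normal SD (Sprague-Dawley) animals. All 9 libraries carry the genotype label WT; age, dose and duration, and whether controls had sham surgery, are not stated in the labels. The labels do not say that each library came from its own animal. The p-values therefore set group differences against the spread between these samples only, which may differ from the spread between animals.

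In the standard scheme of fat cell differentiation, Cebpb and Cebpd are induced early and switch on Pparg and Cebpa, which then maintain each other and the genes of lipid storage. PPARs bind DNA as pairs with an RXR, here represented by Rxra, and so does the oxysterol receptor LXR-alpha encoded by Nr1h3, which can raise Srebf1, the regulator of fatty acid synthesis. In bone marrow, Pparg is known for favouring fat cells over osteoblasts in mouse stromal progenitors, and marrow fat increases after loss of oestrogen.

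The 250 bases before annotated transcription starts are shown for Pparg, Cebpa, Cebpb and Srebf1, the 4 regulators with an unadjusted p under 0.05 in at least 1 of the comparisons described further on. The sequences are RefSeq's for the rat assembly GRCr8, read 5′ to 3′ along the gene, and capitals mark matches on either strand to TTGCGNNA (a C/EBP motif), AGGTCA (the core that nuclear receptors read), CACGTG (an E-box), CCAAT (the NF-Y motif), TATAAA (the TATA box) and GGGCGG (a GC box). Pparg and Srebf1 each have 2 annotated windows, of which both are shown for Pparg and the downstream one for Srebf1, and the deposited gene counts do not separate transcripts by start.
Pparg upstream start, chr4:150096808-150097057, plus strand: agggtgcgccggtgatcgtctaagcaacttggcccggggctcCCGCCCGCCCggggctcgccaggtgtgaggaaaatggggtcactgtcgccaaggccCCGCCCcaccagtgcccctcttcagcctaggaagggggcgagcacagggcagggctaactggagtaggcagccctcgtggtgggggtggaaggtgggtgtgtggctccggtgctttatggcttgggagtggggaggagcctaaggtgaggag
Pparg downstream start, chr4:150154522-150154771, plus strand: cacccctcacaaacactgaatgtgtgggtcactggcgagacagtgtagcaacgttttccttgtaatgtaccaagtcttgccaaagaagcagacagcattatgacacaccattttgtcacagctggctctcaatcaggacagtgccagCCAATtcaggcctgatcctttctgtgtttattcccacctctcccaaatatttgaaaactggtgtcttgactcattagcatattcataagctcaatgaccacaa
Cebpa, chr1:96896334-96896583, plus strand: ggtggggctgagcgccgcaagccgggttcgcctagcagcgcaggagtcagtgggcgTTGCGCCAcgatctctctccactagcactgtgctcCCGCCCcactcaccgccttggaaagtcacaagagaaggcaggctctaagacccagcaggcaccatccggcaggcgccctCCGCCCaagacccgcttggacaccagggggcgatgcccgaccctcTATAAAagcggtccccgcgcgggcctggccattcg
Cebpb, chr3:176816755-176817004, plus strand: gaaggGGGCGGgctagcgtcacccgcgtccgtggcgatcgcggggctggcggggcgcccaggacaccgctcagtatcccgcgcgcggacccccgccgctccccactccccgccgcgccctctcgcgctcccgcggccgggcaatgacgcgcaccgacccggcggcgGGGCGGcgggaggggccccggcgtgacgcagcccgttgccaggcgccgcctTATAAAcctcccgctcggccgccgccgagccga
Srebf1 downstream start, chr10:45519011-45519260, minus strand: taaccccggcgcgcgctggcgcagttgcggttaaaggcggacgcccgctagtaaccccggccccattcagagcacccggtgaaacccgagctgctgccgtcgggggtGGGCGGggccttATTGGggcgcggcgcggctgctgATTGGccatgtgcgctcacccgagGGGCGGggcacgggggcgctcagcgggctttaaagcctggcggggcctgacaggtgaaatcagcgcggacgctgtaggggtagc

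The GC content was 67.2% before the upstream Pparg start and 44.8% before the downstream Pparg start, against a median of 51.2% over 33469 windows of the same length. The upstream Pparg window held 3 GC boxes, of which 2 overlap, and the downstream window held none but had a CCAAT match 103 bases before the start. GC boxes occurred in 30.5% and CCAAT in 34.0% of all windows. Cebpa was the single regulator among the 8 with a window whose sequence matched the C/EBP motif, 194 bases before the start; 2.91% of all windows match it. A TATA match stood 35 bases before the Cebpa start and 33 bases before the Cebpb start, a feature of 12.9% of windows. The Cebpb window was the richest of those shown in G and C, at 80.0%. The downstream Srebf1 window held 2 CCAAT matches, 131 and 108 bases before the start, and the upstream Srebf1 window, not printed, held 1. AGGTCA, found in 14.1% of all windows, and CACGTG, found in 5.59%, had no match in any of the 10 windows of these genes. Ppard and Cebpd are not shown.

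The libraries held 54992823 to 66531156 counts. Group comparisons are given as TMM-scaled CPM (counts at a common library size after edgeR's correction for library composition) with edgeR's quasi-likelihood test, and levels are compared between genes only as FPKM. Bone was represented as labelled: the 10 measured osteoblast and osteocyte markers were detected in every library and summed to 1102 to 2376 FPKM in treated, 1118 to 2837 FPKM in ovariectomized and 1809 to 3236 FPKM in control rats. Libraries differed in marker genes of other tissues. The 8 adipocyte markers summed to 555 to 836 FPKM in treated, 468 to 778 FPKM in ovariectomized and 257 to 479 FPKM in control rats, all 8 being detected in every library. The 10 skeletal muscle markers summed to 639 to 1299, 856 to 3992 and 264 to 844 FPKM in treated, ovariectomized and control rats, and 8 erythroid markers to 2207 to 2741, 2697 to 3116 and 2569 to 4056 FPKM. Control replicate 3 stood apart in fat genes, with an adipocyte score (mean over markers of log2 CPM minus its 9-library mean) of -2.02, whereas the other 8 libraries lay between -0.33 and 0.75. In whole femur, fewer cells of a type and less RNA per cell cannot be told apart.

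Cebpa was the most abundant of the 10 regulators per gene length, at a mean of 35.9 FPKM over the 9 libraries, above 84.1% of tested genes. Rxra followed at 20.8 FPKM, Cebpd at 19.7, Nr1h3 at 16.2, Srebf1 at 14.4, Pparg at 12.2 and Cebpb at 10.5 FPKM. A gap separated these from Ppard at 2.91 FPKM, Ppara at 0.727 FPKM and Ppargc1a at 0.252 FPKM. Cebpa exceeded Rxra in 9 of 9 libraries, Srebf1 exceeded Pparg in 9 of 9, and Cebpb exceeded Ppard and Ppard exceeded Ppara in 9 of 9. The order was less firm between Rxra and Cebpd and between Pparg and Cebpb, which held in 6 of 9 libraries each, between Cebpd and Nr1h3 and between Nr1h3 and Srebf1, which held in 7 of 9, and between Ppara and Ppargc1a, which held in 8 of 9. Within the PPAR family, Pparg stood above Ppard by a factor of 4.18 in means, with 2.36 to 5.61 in single libraries. Against Ppara the factor was 16.7, with 9.20 to 25.9 in single libraries. Within the C/EBP family, Cebpa stood above Cebpb by a factor of 3.41, with 1.62 to 5.07 in single libraries.

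**Figure D1:**
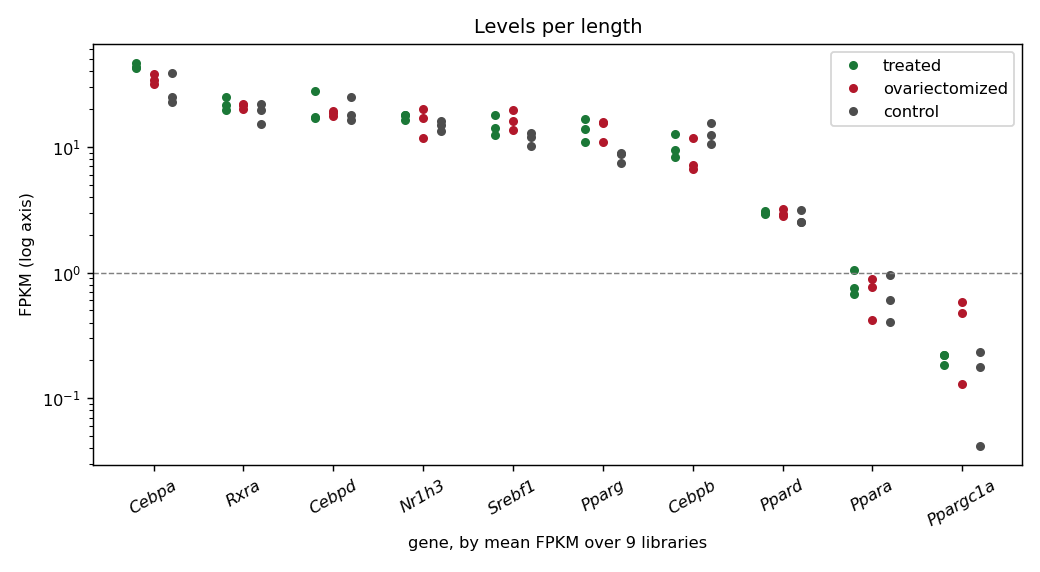
FPKM of the 10 regulators on a log axis, ordered by their mean over 9 libraries, with 1 point per library in treated, ovariectomized and control rats and a dashed line at the 1 FPKM required for testing. Cebpa lies highest at a mean of 35.9 FPKM, 7 genes lie at 10.5 FPKM or above, and Ppara and Ppargc1a have means below the line.

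Pparg (ENSRNOG00000008839, chromosome 4 from 147274107 to 147399380 in the file, whose genome build the labels and headers do not name) encodes the receptor that drives fat cell differentiation. Its TMM-scaled CPM was 32.9, 25.6 and 38.5 in treated rats, 38.1, 37.2 and 25.8 in ovariectomized rats and 22.6, 22.5 and 17.7 in control rats. All 6 treated and ovariectomized libraries lay above all 3 control libraries, and the treated and ovariectomized libraries overlapped. Pparg averaged 33.7 ± 6.84 CPM in ovariectomized and 20.9 ± 2.84 CPM in control rats (SD, n = 3 each), a log2 fold change of 0.69 ± 0.20 (SE; 95% interval 0.24 to 1.14). Its unadjusted p in edgeR was 0.00771, ranking 104th of the tested genes, and the adjusted p over all tested genes was 0.892 in edgeR and 0.129 in DESeq2, so the difference did not pass the test. Treated rats averaged 32.3 ± 6.46 CPM, which against ovariectomized rats gave a log2 fold change of -0.06 ± 0.20 with an interval of -0.51 to 0.39. Against control rats the treated mean was higher by 0.63 ± 0.20 (interval 0.18 to 1.08, adjusted p in edgeR 0.485). That comparison shares its control libraries with the one above.

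The level of Pparg was also set beside that of fat cell genes in the same library. The adipocyte score was 0.56, -0.05 and 0.75 in treated rats, 0.71, 0.46 and 0.16 in ovariectomized rats and -0.33, -0.23 and -2.02 in control rats, so that the 3 control libraries were lowest both in Pparg and in this score. In summed FPKM of the same markers, ovariectomized replicate 3, at 468, lay below control replicate 1, at 479. The FPKM ratio of Pparg over Adipoq, the gene of the fat cell hormone adiponectin, was 0.0841, 0.102 and 0.0895 in treated, 0.0970, 0.116 and 0.131 in ovariectomized and 0.109, 0.128 and 0.427 in control rats. It was highest in control replicate 3, where the ratio of Pparg over Plin1, the gene of a lipid droplet coat protein, was 1.01, against 0.167 to 0.302 in the other 8 libraries. Without control replicate 3 the log2 fold change of Pparg in ovariectomized against control rats was 0.58. The 10 osteoblast and osteocyte markers all had a lower estimate in ovariectomized than in control rats, with a median of -0.38 on the log2 scale. Their score overlapped between these groups, at -0.15, -0.67 and 0.39 in ovariectomized and 0.26, 0.25 and 0.76 in control rats. The part of either marker group in the Pparg difference was not tested.

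Ppard (ENSRNOG00000000503, chromosome 20 from 7818289 to 7885333), the broadly expressed PPAR of fatty acid oxidation, was the steadiest of the 10. In TMM-scaled CPM, Ppard was at 17.8, 16.6 and 16.8 in treated rats, 17.2, 16.6 and 18.6 in ovariectomized rats and 15.5, 15.6 and 18.3 in control rats. The whole range over 9 libraries was a factor of 1.20, and the 3 groups overlapped. The log2 fold change was 0.08 ± 0.10 in ovariectomized against control rats (95% interval -0.14 to 0.31) and -0.03 ± 0.10 in treated against ovariectomized rats (-0.26 to 0.19), the narrowest intervals among the 10.

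Ppara (ENSRNOG00000021463, chromosome 7 from 126619196 to 126681752), the PPAR best known for fatty acid oxidation in liver, was represented by 57 to 134 counts per library. Values for Ppara in TMM-scaled CPM were 2.32, 1.64 and 1.45 in treated rats, 1.74, 2.01 and 0.929 in ovariectomized rats and 0.948, 2.27 and 1.32 in control rats. The groups overlapped and no group stood out. In a fit without the level filter, Ppara had a log2 fold change of 0.03 ± 0.41 in ovariectomized against control rats, with an interval of -0.90 to 0.97, which does not exclude differences of nearly 2-fold in either direction. Hepatocyte markers were near 0 in all libraries, with Ttr at 0 counts in 9 of 9.

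Cebpa (ENSRNOG00000010918, chromosome 1 from 91363492 to 91366164) maintains the fat cell state together with Pparg and is also needed for granulocyte formation in mouse marrow. In TMM-scaled CPM, Cebpa was at 128, 114 and 115 in treated rats, 106, 96.0 and 87.4 in ovariectomized rats and 114, 68.2 and 68.5 in control rats. Each treated library lay above each ovariectomized library and, by a small margin at control replicate 1, above each control library. The means were 119 ± 8.05 CPM in treated, 96.6 ± 9.56 CPM in ovariectomized and 83.6 ± 26.4 CPM in control rats (SD, n = 3 each). Treated against ovariectomized rats gave a log2 fold change of 0.30 ± 0.19 (95% interval -0.14 to 0.74, edgeR unadjusted p 0.155 and adjusted p 0.945), so the separation of the libraries was not matched by the test. Treated against control rats gave 0.51 ± 0.19 (interval 0.07 to 0.95, adjusted p 0.516 in edgeR and 0.266 in DESeq2), which became 0.81 without control replicate 1 and 0.38 without control replicate 2. Ovariectomized against control rats gave 0.21 ± 0.19, and 0.50 without control replicate 1. Beside these values, 9 of the 10 listed neutrophil markers passed the level filter and all 9 had a higher estimate in treated than in ovariectomized rats, with a median of 0.30 on the log2 scale. In summed FPKM, the 10 neutrophil markers overlapped between treated rats, at 29697 to 42766, and ovariectomized rats, at 25197 to 30467. The largest parts of the sum were S100a9 and S100a8, at means of 15823 and 7886 FPKM. Ltf, a granule protein gene, was at or near 0 throughout. The neutrophil score, which weights the markers equally, was 0.61, 0.08 and -0.14 in treated and -0.15, 0.14 and -0.24 in ovariectomized rats, and so overlapped too. The part of the neutrophil markers in the Cebpa values was not tested.

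Cebpb (ENSRNOG00000057347, chromosome 3 from 164424515 to 164425910), an early inducer of fat cell differentiation and an inflammatory factor of myeloid cells, had lower mean levels in treated and ovariectomized than in control rats, the side opposite to Pparg. Cebpb was at 13.6, 11.8 and 17.7 TMM-scaled CPM in treated rats, 17.4, 10.6 and 9.58 in ovariectomized rats and 19.1, 16.3 and 22.2 in control rats. Ovariectomized replicates 2 and 3 lay below every control library, while ovariectomized replicate 1 lay within the control range. Ovariectomized rats averaged 12.5 ± 4.24 CPM and control rats 19.2 ± 2.91 CPM (SD, n = 3 each), a log2 fold change of -0.61 ± 0.25 (95% interval -1.19 to -0.04, edgeR unadjusted p 0.0391 and adjusted p 0.970). It was -0.92 when ovariectomized replicate 1 was left out. The estimate was 0.20 ± 0.25 in treated against ovariectomized rats and -0.42 ± 0.25 in treated against control rats, both with intervals that include 0. The FPKM ratio of Cebpb over Cebpa was 0.203, 0.197 and 0.295 in treated, 0.313, 0.212 and 0.210 in ovariectomized and 0.320, 0.459 and 0.619 in control rats. All 6 treated and ovariectomized libraries lay below the control libraries in that ratio, narrowly so at ovariectomized replicate 1 and control replicate 1. The ratio itself was not tested.

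Cebpd (ENSRNOG00000050869, chromosome 11 from 89008008 to 89009146), the other early C/EBP, showed no ordering by group. Cebpd was at 33.0, 19.8 and 19.2 TMM-scaled CPM in treated rats, 22.3, 23.3 and 20.7 in ovariectomized rats and 31.1, 22.8 and 19.1 in control rats. Treated replicate 1 and control replicate 1 were high and the other 7 libraries lay between 19.1 and 23.3. Ovariectomized against control rats gave a log2 fold change of -0.14 ± 0.24, and treated against ovariectomized rats gave 0.12 ± 0.24.

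**Figure D2:**
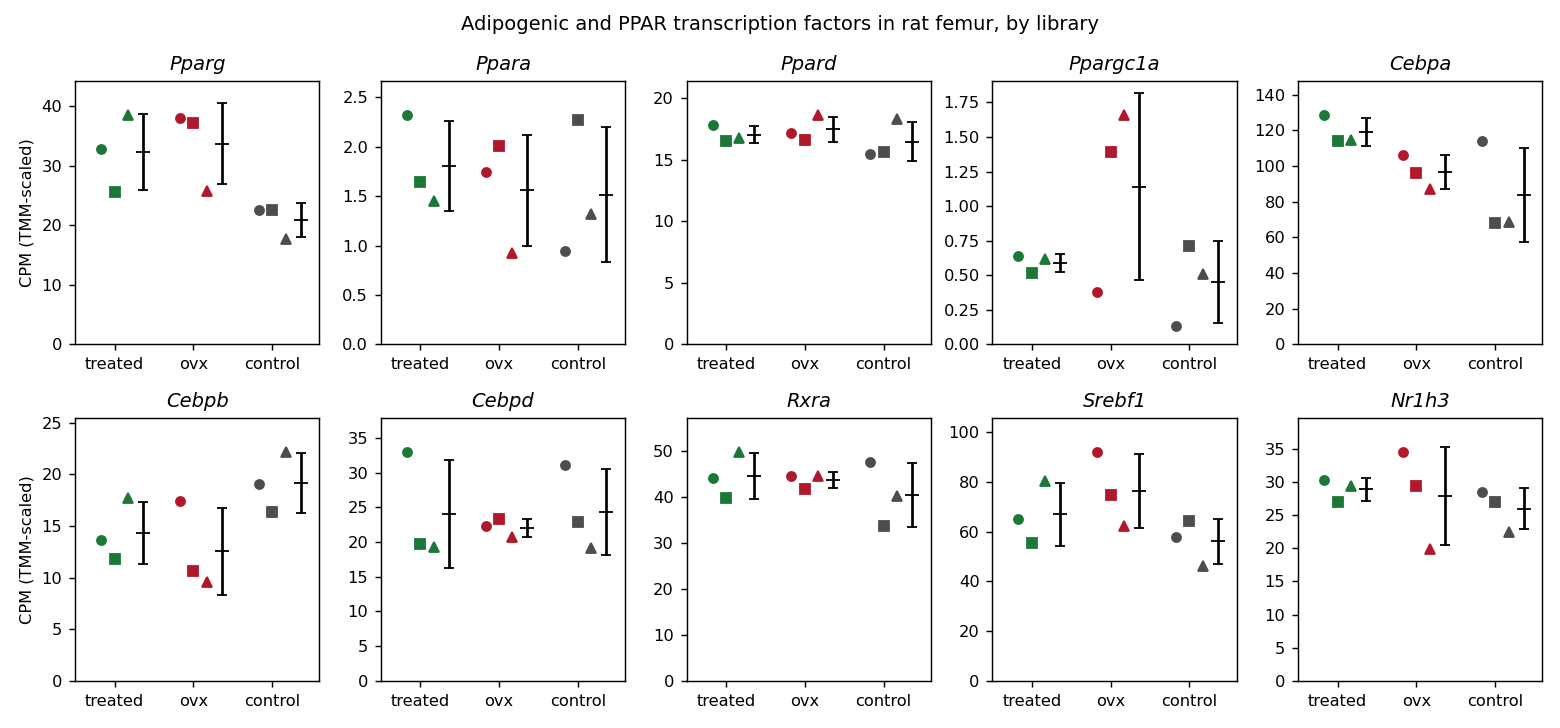
TMM-scaled CPM of each of the 10 genes in treated, ovariectomized (ovx) and control rats, with circles, squares and triangles for replicates 1, 2 and 3 and bars for the mean and SD of 3 libraries. The 6 treated and ovariectomized libraries of Pparg lie above the 3 control libraries, and the 3 treated libraries of Cebpa lie above the other 6.

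Rxra (ENSRNOG00000009446, chromosome 3 from 6211789 to 6295908), the shared DNA-binding partner, varied little. Its TMM-scaled CPM was 44.2, 39.7 and 49.8 in treated rats, 44.7, 41.7 and 44.6 in ovariectomized rats and 47.6, 33.7 and 40.2 in control rats, with overlapping groups. The log2 fold change was 0.11 ± 0.13 in ovariectomized against control rats (95% interval -0.19 to 0.41) and 0.03 ± 0.13 in treated against ovariectomized rats (-0.27 to 0.33).

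Nr1h3 (ENSRNOG00000013172, chromosome 3 from 80004130 to 80012750 on the minus strand) encodes the sterol sensor LXR-alpha. Its TMM-scaled CPM was 30.3, 27.0 and 29.4 in treated rats, 34.5, 29.3 and 19.8 in ovariectomized rats and 28.5, 27.0 and 22.5 in control rats. The ovariectomized libraries spanned both the highest and the lowest value, and estimates were 0.10 ± 0.19 in ovariectomized against control and 0.05 ± 0.19 in treated against ovariectomized rats on the log2 scale. In FPKM, the treated libraries of Nr1h3 lay above the control libraries, at 16.3 to 18.0 against 13.4 to 16.0, although they overlapped in TMM-scaled CPM.

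Srebf1 (ENSRNOG00000003463, chromosome 10 from 46570996 to 46593009 on the minus strand) encodes SREBP-1, the membrane-bound factor that is cleaved to switch on fatty acid synthesis. In TMM-scaled CPM, Srebf1 was at 65.1, 55.4 and 80.2 in treated rats, 92.0, 74.8 and 62.2 in ovariectomized rats and 57.9, 64.1 and 46.2 in control rats. Ovariectomized replicate 3 lay just inside the control range and the other 2 ovariectomized libraries lay above it; in FPKM the ovariectomized libraries, at 13.6 to 19.8, lay above the control libraries, at 10.1 to 13.0. Means were 76.4 ± 14.9 CPM in ovariectomized and 56.1 ± 9.12 CPM in control rats (SD, n = 3 each), a log2 fold change of 0.45 ± 0.19 (95% interval 0.01 to 0.88, edgeR unadjusted p 0.0447 and adjusted p 0.974). The estimate was 0.29 without ovariectomized replicate 1. Treated rats averaged 66.9 ± 12.5 CPM, and the estimate against ovariectomized rats was -0.19 ± 0.19 (interval -0.62 to 0.24). The FPKM ratio of Srebf1 over Pparg was 1.02, 1.12 and 1.08 in treated, 1.25, 1.04 and 1.25 in ovariectomized and 1.33, 1.47 and 1.35 in control rats, so that it was higher in every control library than in the other 6. Other ratios between regulators overlapped. Pparg over Cebpa ran from 0.344 to 0.451 in ovariectomized and from 0.231 to 0.385 in control rats. Ppard over Pparg ran from 0.182 to 0.295 in ovariectomized and from 0.280 to 0.423 in control rats. How often ratios of other gene pairs separate the control libraries was not tested.

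Ppargc1a (ENSRNOG00000004473, chromosome 14 from 63095720 to 63187009) encodes PGC-1alpha, the coactivator of mitochondrial formation that is abundant in oxidative muscle and brown fat. It was the least expressed and the most variable of the 10, at 37, 33 and 39 counts in treated, 24, 76 and 107 in ovariectomized and 8, 42 and 34 in control libraries. Scaled for library size, Ppargc1a was at 0.640, 0.516 and 0.615 TMM-scaled CPM in treated rats, 0.377, 1.39 and 1.66 in ovariectomized rats and 0.133, 0.713 and 0.505 in control rats. Ovariectomized replicates 2 and 3 were high and control replicate 1 was low, which are also the libraries at the ends of the skeletal muscle score, at 1.05, 1.83 and -1.76, whereas the other 6 lay between -0.61 and 0.33. Those other 6 did not follow the order of the score. Control replicate 2 had 0.713 CPM at a score of -0.61, and ovariectomized replicate 1 had 0.377 CPM at -0.10. The part of muscle RNA in the Ppargc1a values was not tested. In the fit without the level filter, ovariectomized against control rats gave a log2 fold change of 1.33 ± 0.67 (95% interval -0.19 to 2.85), and treated against ovariectomized rats gave -0.94 ± 0.66 (-2.44 to 0.56).

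**Figure D3:**
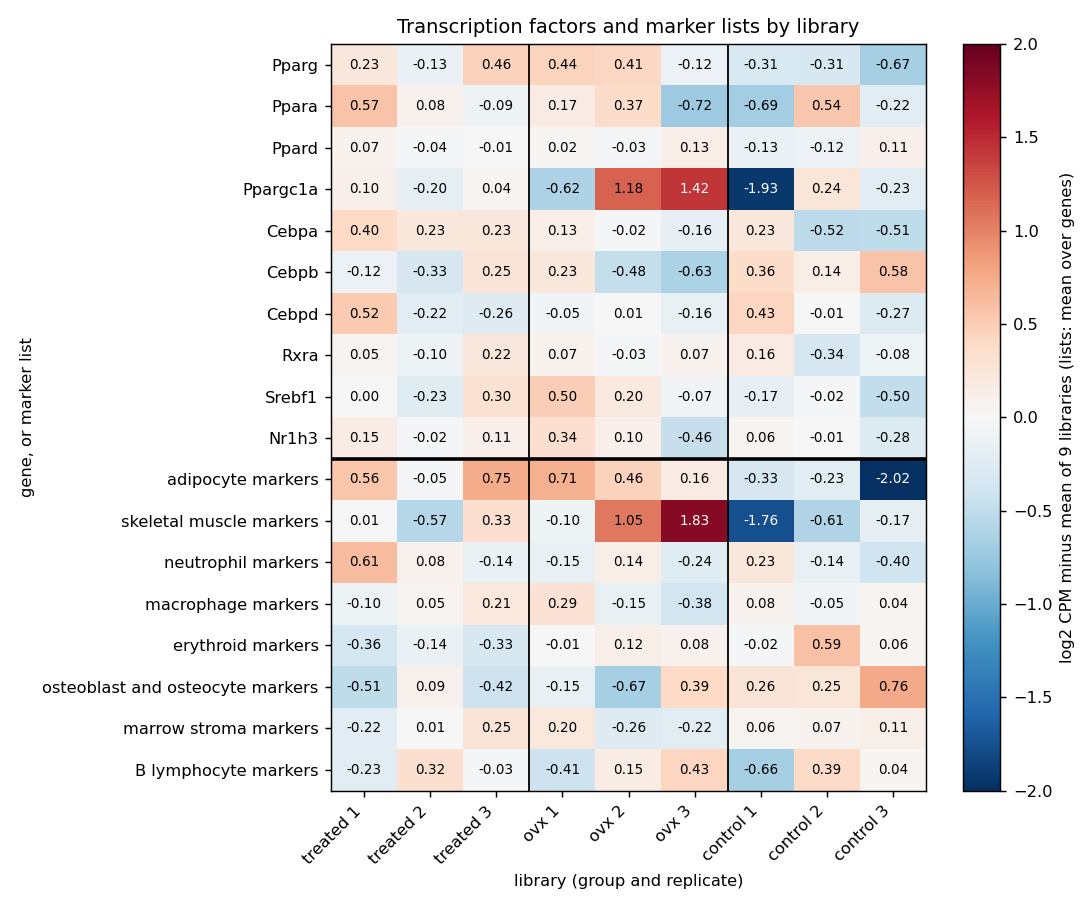
Deviation of log2 CPM from the mean of 9 libraries for the 10 genes (upper rows) and mean deviation for 8 marker lists (lower rows), by library, with replicate numbers under each group. Pparg and the adipocyte list are both lowest in control replicate 3, at -0.67 and -2.02, and Ppargc1a and the skeletal muscle list are both lowest in control replicate 1, at -1.93 and -1.76.

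None of the 8 tested regulators had an adjusted p under 0.05 in any of the 3 comparisons with edgeR, DESeq2 or limma. Over all 13886 genes, edgeR and limma called 0% in each comparison, while DESeq2 called 0.425% in ovariectomized against control, 0.252% in treated against ovariectomized and 1.1% in treated against control rats. An unadjusted p under 0.05 was reached by 3 of the 8 in ovariectomized against control rats, namely Pparg and Srebf1 with a higher and Cebpb with a lower estimate, where 5.05% of all tested genes reached it, 3.33% with a higher and 1.72% with a lower estimate. With 1 library left out this count lay between 1 and 3, and Pparg was below 0.05 in each such fit; the count was 1 without control replicate 3, without ovariectomized replicate 2 or without treated replicate 1. In treated against ovariectomized rats 0 of 8 reached it, where 5.2% of all genes did, 2.12% with a higher and 3.08% with a lower estimate; the count was 1 without control replicate 1 or ovariectomized replicate 1. In treated against control rats 2 of 8 reached it, Pparg and Cebpa, both with a higher estimate, where 8.81% of all genes did, 4.05% higher and 4.75% lower; the count was 1 without control replicate 2, control replicate 3 or treated replicate 1, in each case Pparg.

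The median log2 fold change of the 8 was 0.11 in ovariectomized against control rats, 0.04 in treated against ovariectomized rats and 0.15 in treated against control rats, and the median over all tested genes was 0.00 in each. In TMM-scaled CPM the groups did not overlap for 1 of 8 regulators in ovariectomized against control rats (Pparg), where this held for 8.96% of all genes, for 1 of 8 in treated against ovariectomized rats (Cebpa), where it held for 12.4%, and for 2 of 8 in treated against control rats (Pparg and Cebpa), where it held for 13.1%. Of all genes, 5.01% lay higher and 3.95% lower in ovariectomized than in control rats without overlap in TMM-scaled CPM, and 7.6% higher and 2.05% lower in FPKM, or 9.64% in either direction. The corresponding shares were 5.74% higher and 6.63% lower in treated than in ovariectomized rats in TMM-scaled CPM, and 10% and 3.93% in FPKM, or 14% in either direction. In treated against control rats they were 6.29% and 6.8% in TMM-scaled CPM, and 14.3% and 2.66% in FPKM, or 17% in either direction. In FPKM, groups also did not overlap for Srebf1 in ovariectomized against control rats and for Nr1h3 in treated against control rats.

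**Figure D4:**
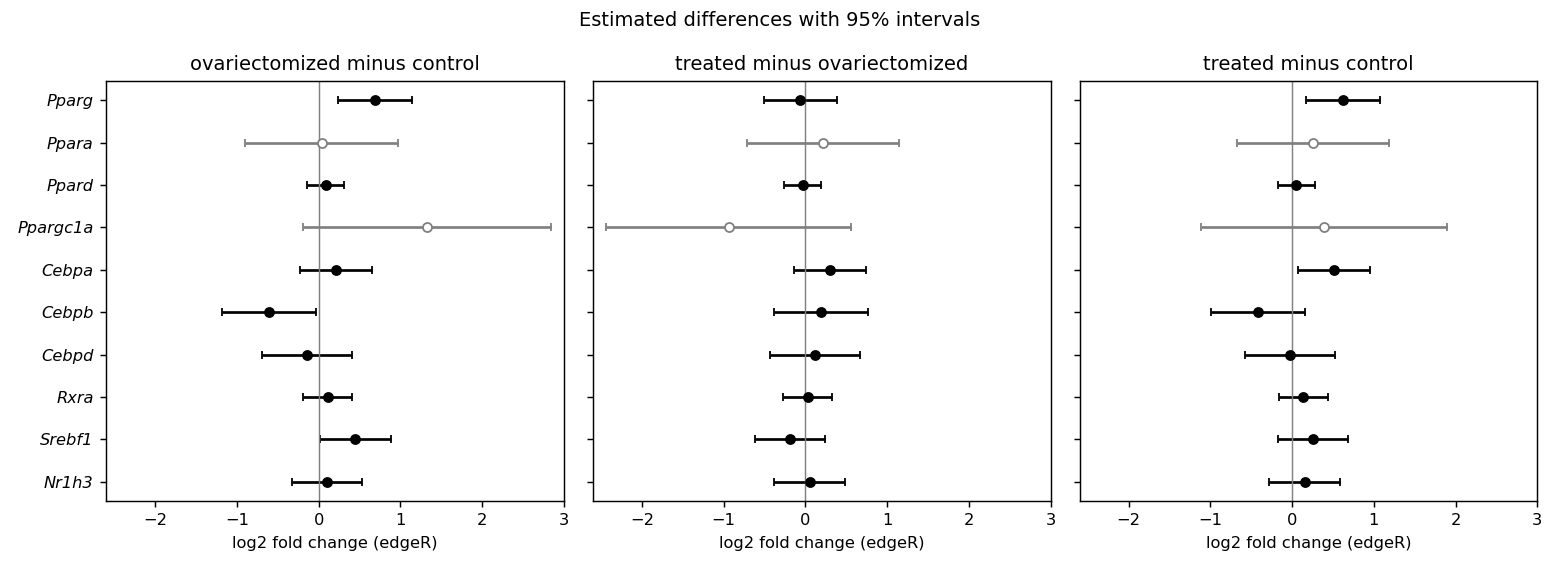
Log2 fold change of each of the 10 genes with its 95% interval in edgeR, for ovariectomized minus control, treated minus ovariectomized and treated minus control rats; open grey symbols are the 2 genes below the level filter, from the fit without it. Pparg at 0.69 and 0.63 lies above 0 with its interval against control rats, and in treated against ovariectomized rats each of the 10 intervals includes 0.

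Profiles were compared as the root mean square difference of log2 CPM after centring each gene on its mean of 9 libraries, a measure of likeness that carries no test. Among the 10 regulators, the closest pair was the flat pair Ppard and Rxra at 0.162, followed by Pparg and Srebf1 at 0.174 and Srebf1 and Nr1h3 at 0.210. Cebpb was farther from Pparg, at 0.624, than from any regulator other than Ppargc1a, whose distances ran from 0.884 to 1.23. The 3 tested genes nearest to Pparg were Ehd2, which encodes a membrane protein of caveolae, at 0.113, Fitm2, which encodes a protein of lipid droplet formation, at 0.115, and Chpt1, a phosphatidylcholine synthesis enzyme, at 0.135. The level of Fitm2 was 19.3, 15.6 and 21.1 CPM in treated, 19.2, 19.7 and 16.6 CPM in ovariectomized and 13.8, 14.0 and 9.43 CPM in control rats, with control replicate 3 again lowest. Nearest to Cebpb were Maf, a transcription factor also expressed in macrophages, at 0.157, Carmil1 at 0.180 and Snx24 at 0.182. Nearest to Ppargc1a was Hspb6, a small heat shock protein of muscle, at 0.322, and next Cav3, the caveolin of muscle, at 0.335. Cav3 was at 0.969, 1.05 and 1.58 CPM in treated, 0.706, 2.76 and 5.51 CPM in ovariectomized and 0.233, 1.17 and 0.965 CPM in control rats. Nearest to Ppara was Ms4a4e at 0.239, a looser match at the low counts of Ppara.

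Genes known as targets of these factors were counted as lists, chosen with earlier results of these data known. The shares over all genes are therefore descriptive and do not make an excess in a list independent evidence. In edgeR 0% of all genes passed the adjusted threshold in each comparison. Apart from Acly, genes named from the lists had the smallest p in their list, so their separation by group is not separate evidence. Of 20 listed PPARG targets of fat cells, 19 had a row and were tested; 4 of them are also adipocyte markers (Adipoq, Plin1, Cidec and Lipe). In ovariectomized against control rats 18 had a higher and 1 a lower estimate, with a median log2 fold change of 1.06 where the median of all genes was 0.00. With edgeR 0 passed the adjusted threshold, 11 had an unadjusted p under 0.05 with a higher estimate, where 3.33% of all genes did, and 14 had groups that did not overlap, all higher, where 5.01% of all genes lay higher without overlap. Lpl, which encodes the lipase acting on circulating lipoproteins, was at 364, 210 and 415 CPM in treated, 299, 399 and 253 CPM in ovariectomized and 128, 136 and 65.2 CPM in control rats. All 6 treated and ovariectomized libraries of Lpl were above the control libraries, and its log2 fold change was 1.53 ± 0.34 in ovariectomized against control rats. The fatty acid transporter gene Slc27a1 differed by 0.58 ± 0.15, Gpd1 of glycerol phosphate synthesis by 1.34 ± 0.36 and the lipid droplet gene Plin4 by 1.33 ± 0.38. Of these 4, DESeq2 gave Lpl and Gpd1 an adjusted p under 0.05, at 0.00190 and 0.0262.

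In treated against ovariectomized rats the PPARG targets had 8 higher and 11 lower estimates, a median of -0.03 and 0 with an unadjusted p under 0.05 in either direction. For 1 of the 19, Plin4, the groups did not overlap, at 21.6 to 31.3 CPM in treated and 36.6 to 42.0 CPM in ovariectomized rats, where 6.63% of all genes lay lower without overlap. Against control rats, treated rats had 18 higher and 1 lower, a median of 1.01, and 13 with a higher estimate at an unadjusted p under 0.05, where 4.05% of all genes did. The count of 11 in ovariectomized against control rats was 7 without ovariectomized replicate 1, and the median was 0.69 without control replicate 3. The count of 13 in treated against control rats was 4 without treated replicate 1 and 6 without treated replicate 3. These differences moved with the whole adipocyte marker list, of which all 8 had higher estimates in ovariectomized than in control rats with a median of 1.19; the part of fat cell content was not tested.

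SREBP-1 targets of lipid synthesis, 13 of 15 tested, had 11 higher and 2 lower estimates in ovariectomized against control rats with a median of 0.41. An unadjusted p under 0.05 was reached by 6, all higher, where 3.33% of all genes did so. With edgeR 0 passed the adjusted threshold. In treated against ovariectomized rats 2 were higher and 11 lower with a median of -0.17, and 3 had a lower estimate at an unadjusted p under 0.05, where 3.08% of all genes did. These were Lpin1, a phosphatidate phosphatase and coactivator, Fasn, the fatty acid synthase, and Acly, which supplies acetyl-CoA and is named after its values were seen. Lpin1 was at 31.7, 26.8 and 34.1 CPM in treated, 43.5, 41.6 and 41.4 CPM in ovariectomized and 27.7, 32.3 and 35.0 CPM in control rats. Each ovariectomized library of Lpin1 lay above the other 6. Its log2 fold change was -0.45 ± 0.11 in treated against ovariectomized rats (edgeR adjusted p 0.929). In ovariectomized against control rats it was 0.41 ± 0.11 (edgeR adjusted p 0.892). Fasn was at 170, 173 and 254 CPM in treated, 459, 456 and 208 CPM in ovariectomized and 147, 245 and 138 CPM in control rats. Ovariectomized replicate 3 of Fasn lay among the other groups, and the fold changes were -0.91 ± 0.34 in treated against ovariectomized and 1.08 ± 0.34 in ovariectomized against control rats on the log2 scale. Scd, the desaturase gene, was higher by 1.49 ± 0.36 in ovariectomized than in control rats, with a DESeq2 adjusted p of 0.00415, and differed by -0.51 in treated against ovariectomized rats. Those 2 comparisons share the ovariectomized libraries. In treated against control rats 9 of the 13 were higher and 4 lower, with a median of 0.17. Of the 13, 4 had a higher estimate at an unadjusted p under 0.05, where 4.05% of all genes did. This count became 0 without control replicate 1 or treated replicate 3. It became 1 without control replicate 3 or treated replicate 1.

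**Figure D5:**
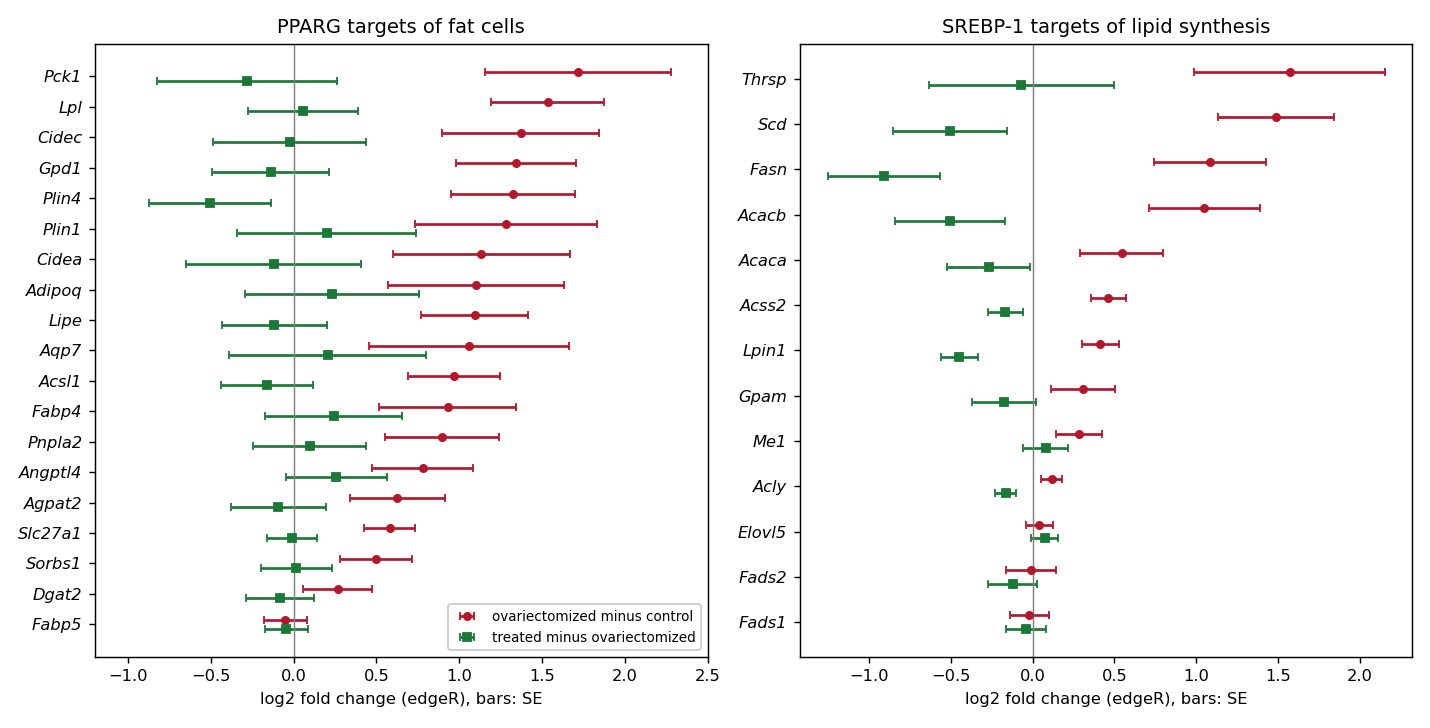
Log2 fold change with SE bars in edgeR of the tested PPARG targets of fat cells (left) and SREBP-1 targets of lipid synthesis (right), for ovariectomized minus control (circles) and treated minus ovariectomized rats (squares). The circles of 18 of 19 PPARG targets lie above 0 and their squares scatter around 0, and 11 of 13 SREBP-1 targets have squares below 0.

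PPARA and PPARD targets of fatty acid oxidation, 16 of 20 tested, had 14 higher and 2 lower estimates in ovariectomized against control rats with a median of 0.22. Of these 16, 3 had a higher estimate at an unadjusted p under 0.05, where 3.33% of all genes did. They split into 8 higher and 8 lower in treated against ovariectomized rats, and in treated against control rats 15 were higher and 1 lower with a median of 0.23. Ucp3, a mitochondrial carrier gene abundant in muscle, was at 7.34, 6.30 and 8.89 CPM in treated, 4.91, 5.14 and 7.52 CPM in ovariectomized and 5.01, 4.73 and 3.24 CPM in control rats. All 3 treated libraries of Ucp3 lay above the control libraries, with a log2 fold change of 0.80 ± 0.25 in treated against control rats and an edgeR unadjusted p of 0.0115. Pdk4, a brake on glucose oxidation that is abundant in muscle, was at 43.8 CPM in ovariectomized replicate 3, the library highest in muscle markers, and at 6.02 to 21.7 CPM in the other 8.

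LXR targets, 7 of 10 tested, had 4 higher and 3 lower estimates in ovariectomized against control rats and 6 higher and 1 lower in treated against ovariectomized rats, with medians of 0.01 and 0.17. Mylip, which marks the LDL receptor for degradation, was at 85.4, 94.2 and 89.5 CPM in treated, 77.0, 75.6 and 76.9 CPM in ovariectomized and 82.9, 70.4 and 75.3 CPM in control rats. All 3 treated libraries of Mylip lay above the other 6. Its log2 fold change was 0.23 ± 0.07 in treated against ovariectomized rats (edgeR adjusted p 0.929). Abcg1, a cholesterol exporter, differed by 0.45 ± 0.18 in ovariectomized against control rats (edgeR adjusted p 0.966). In treated against control rats it differed by 0.66 ± 0.18 (edgeR adjusted p 0.473). Among 6 genes of SREBP processing, 0 had an unadjusted p under 0.05 in ovariectomized against control or treated against ovariectomized rats, and Insig1, which holds SREBPs in the endoplasmic reticulum, was higher by 0.52 ± 0.22 in treated than in control rats.

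Partners and cofactors of PPAR and RXR, 15 of 17 tested, had 10 higher and 5 lower estimates in ovariectomized against control rats with a median of 0.06, and 6 higher and 9 lower in treated against ovariectomized rats with a median of -0.01. Pprc1, a relative of Ppargc1a, had the lowest p, at 56.3, 53.0 and 53.3 CPM in treated, 55.5, 50.6 and 57.9 CPM in ovariectomized and 58.6, 62.8 and 69.6 CPM in control rats. Its control libraries all lay above the other 6. Its log2 fold change was -0.22 ± 0.08 in ovariectomized against control rats (edgeR adjusted p 0.941). PGC-1alpha partners and targets, 11 of 12 tested, split into 6 higher and 5 lower in ovariectomized against control rats and 2 higher and 9 lower in treated against ovariectomized rats. Esrra, the oestrogen-related receptor that works with PGC-1alpha, was at 35.0, 31.9 and 32.1 CPM in treated, 30.9, 33.8 and 30.2 CPM in ovariectomized and 26.4, 24.1 and 27.5 CPM in control rats. Its control libraries all lay lowest, with a log2 fold change of 0.28 ± 0.08 in ovariectomized against control rats (edgeR adjusted p 0.892). The other C/EBP genes and C/EBP brakes, all 7 tested, had 6 higher and 1 lower in ovariectomized against control rats with a median of 0.09, and 0 of 7 had an unadjusted p under 0.05 in either ovariectomized against control or treated against ovariectomized rats. In treated against control rats 1 of 7 did, where 8.81% of all genes did. This was Trib3, which encodes a pseudokinase of the stress response, with a log2 fold change of 0.75 ± 0.28.

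Other factors that promote fat cell formation, 14 of 16 tested, had 10 higher and 4 lower estimates in ovariectomized against control rats and 2 higher and 12 lower in treated against ovariectomized rats, with medians of 0.04 and -0.15. Klf15, a factor that raises Pparg in mouse fat cell cultures, was at 4.57, 4.44 and 5.66 CPM in treated, 9.31, 6.91 and 6.05 CPM in ovariectomized and 4.84, 3.66 and 4.71 CPM in control rats. The ovariectomized libraries of Klf15 all lay above the other 6. Its log2 fold change was -0.60 ± 0.21 in treated against ovariectomized rats (edgeR adjusted p 0.929). In ovariectomized against control rats it was 0.75 ± 0.21 (edgeR adjusted p 0.892). Klf9 differed by -0.78 ± 0.24 in treated against ovariectomized rats. In treated against control rats 5 of the 14 were higher and 9 lower with a median of -0.08. A lower estimate at an unadjusted p under 0.05 was found for 2, Klf5 and Creb1, where 4.75% of all genes had it. Klf5, an early factor of fat cell differentiation in mouse, was at 15.1, 12.7 and 13.1 CPM in treated, 13.1, 22.7 and 14.7 CPM in ovariectomized and 22.7, 21.8 and 23.5 CPM in control rats. Its treated libraries all lay below its control libraries, with log2 fold changes of -0.74 ± 0.19 in treated against control and -0.43 ± 0.19 in ovariectomized against control rats, the side opposite to Klf15. In treated against ovariectomized rats, factors that restrain fat cell formation leaned to the same side as the promoting factors. Of 11 tested of 13, 3 were higher and 8 lower in that comparison, with a median of -0.20. Against control rats, 5 were higher and 6 lower in treated rats, and 8 were higher and 3 lower in ovariectomized rats. In treated against ovariectomized rats, 2 of the 14 promoting and 1 of the 11 restraining factors had a lower estimate at an unadjusted p under 0.05. Over all genes this share was 3.08%. The restraining factor was Zfp521, with a log2 fold change of -0.36 ± 0.15 (edgeR adjusted p 0.929).

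The list of glucocorticoid and immediate early response genes, also chosen with earlier results of these data known, was tested in full, with 14 genes. In treated against ovariectomized rats 0 were higher and 14 lower with a median of -0.59, and 9 had a lower estimate at an unadjusted p under 0.05, where 3.08% of all genes did; 0 passed the adjusted threshold in edgeR. In ovariectomized against control rats 6 were higher and 8 lower with a median of -0.06, and in treated against control rats 1 was higher and 13 lower with a median of -0.61. Fos was at 45.9, 51.8 and 45.5 CPM in treated, 117, 80.3 and 78.0 CPM in ovariectomized and 90.5, 103 and 99.6 CPM in control rats, so the treated libraries all lay lowest. The treated libraries of Egr1 also all lay lowest, with log2 fold changes of -0.65 ± 0.14 in treated against ovariectomized and -1.02 ± 0.14 in treated against control rats. Unlike for Fos, the ovariectomized libraries of Egr1, at 76.8 to 115 CPM, all lay below its control libraries, at 120 to 125 CPM. The log2 fold change of Egr1 in that comparison was -0.36 ± 0.14 (edgeR adjusted p 0.945). Cebpb and Cebpd had estimates of 0.20 ± 0.25 and 0.12 ± 0.24 in treated against ovariectomized rats.

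The PPAR signaling pathway in the file's own annotation holds 79 genes, 5 of them among the 10 regulators; of the other 74, 44 were tested. In ovariectomized against control rats 30 were higher and 14 lower with a median of 0.21. An unadjusted p under 0.05 was reached by 12 higher and 1 lower, where 3.33% of all genes reached it higher and 1.72% lower. Treated against ovariectomized rats had 27 higher and 17 lower with a median of 0.05, and in treated against control rats 33 were higher and 11 lower with a median of 0.27. The pathway overlaps with the target lists above, so these counts are not separate evidence.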

How the data were processed

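Gene counts and FPKM values were deposited by the authors in 1 table, per the file headers; FPKM, which is relative to gene length and library size, is 0.0001 where the count is 0. The submitters' processing notes name fastp, HISAT2 and StringTie; no source used here gives their versions, the genome build or the strand use in counting. Libraries held 54992823 to 66531156 counts. No column of per-sample values was left unmapped.

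The 13886 genes averaging 1 FPKM or more were tested with edgeR 4.0.16 (R 4.3.3): TMM, 1 quasi-likelihood fit over 9 libraries, Benjamini-Hochberg adjustment over all genes, threshold 0.05. The common coefficient of variation was 0.262. SE is the log2 fold change over the square root of F. The step was run on simulated data with changes larger than any estimate for the tested regulators, so changes of their size were not covered. The 10 genes were always named, with up to 4 genes per pathway list by the smallest p in any comparison, markers by list, and the 3 nearest profiles of each of the 10 genes spanning at least 1 on the log2 scale. Members and lists were chosen with earlier results of these data known. Listed symbols without a row were not analysed here, and 1 gene within this rule is not reported here.

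Alternatives were DESeq2 1.42.0, limma 3.58.1 on log2(FPKM + 1) or log2(FPKM + 0.1), median-of-ratios or upper quartile scaling, no filter or 5 FPKM, a robust fit, 2 groups alone, a block for replicate number, and leaving out single libraries. Counts under these settings of the 10 genes and of the PPARG and SREBP-1 targets at an unadjusted p under 0.05 were chosen after seeing the data. Replicates differed beyond sampling noise in every pair.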

Additional observations from a re-analysis of the deposited data

How the results depend on the processing

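The count of regulators with an adjusted p under 0.05 was 0 in each comparison under every alternative run. Of 30 estimates (10 genes, 3 comparisons), 18 kept their sign throughout and 0 had an adjusted p under 0.05 under any setting. With limma on log2(FPKM + 1) and log2(FPKM + 0.1), 2 near-zero estimates turned, Ppard in treated against ovariectomized rats to 0.0047 and 0.0065, and Cebpd in treated against control rats to 0.046 and 0.047. With each library left out in turn, 12 estimates turned sign. In ovariectomized against control rats these were Ppara (-0.21 to 0.45), Cebpd (-0.29 to 0.070), Rxra (-0.017 to 0.24) and Nr1h3 (-0.080 to 0.30). In treated against ovariectomized rats they were Pparg (-0.22 to 0.083), Ppara (-0.057 to 0.44), Ppard (-0.067 to 0.014), Cebpd (-0.18 to 0.26), Rxra (-0.060 to 0.10) and Nr1h3 (-0.14 to 0.23). In treated against control rats they were Ppargc1a (-0.041 to 0.88) and Cebpd (-0.32 to 0.20). The cause was not tested. Over the same fits Pparg ran from 0.58 to 0.85 in ovariectomized against control rats and from 0.48 to 0.77 in treated against control rats. Over all alternatives its adjusted p in ovariectomized against control rats ran from 0.129 upwards.

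The labels do not say what libraries with the same replicate number share. Deviations of same-numbered libraries correlated between -0.132 and 0.184, and those of differently numbered libraries between -0.167 and 0.136. These ranges do not settle whether the numbers mark a shared factor. With the replicate number as a block, 0 regulators were called in each comparison, and 814, 906 and 1516 genes had an unadjusted p under 0.05 (ovariectomized minus control, treated minus ovariectomized, treated minus control), where 701, 722 and 1223 did without it. Ppara and Ppargc1a had 57 to 134 and 8 to 107 counts per library, and within-group SDs of 0.53 and 0.93 in log2 CPM. With 3 libraries per group, where the labels do not name separate animals, an interval that includes 0 does not show that groups were equal.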
